A study of Mus musculus with 16 samples.

Results

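Transcripts of 10 Wnt pathway genes were measured in mIMCD3 cells, a mouse cell line derived from the inner medullary collecting duct of the kidney. The genes were taken by name from the 54393 genes of the count table: the ligands Wnt4, Wnt7a, Wnt7b, Wnt9a and Wnt10a, the receptor Lgr4, the transcription factors Lef1 and Tcf7, and the feedback inhibitors Axin2 and Nkd1. The line comes from a mouse transgenic for the SV40 T antigen, a background that all groups share. The cells, labelled wild type, were kept on permeable filters for 10 days and then received doxycycline (DOX, 2 ug/mL) or its vehicle DMSO for 3 or 6 days, with fresh medium each day. Each of the 4 groups had 4 libraries. The labels call the libraries replicates without saying whether they came from separate cultures, so the p-values measure only the spread between these libraries.

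Wnt proteins are secreted lipid-modified signals. In the canonical branch they bind Frizzled receptors and LRP co-receptors, which stops the destruction complex from degrading beta-catenin. Beta-catenin then joins TCF/LEF factors on DNA and turns on target genes, among them Axin2 and Nkd1, whose products restrain the pathway. Lgr4 binds R-spondins, which raise the number of Frizzled receptors at the cell surface. In the kidney, Wnt9b and Wnt4 act in nephron formation, and Wnt7b from the collecting duct epithelium is needed for the medulla to form.

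Total counts lay between 16933343 and 23960860 per library, so that 3 counts, the most that a count of 0 allows, equal 0.125 to 0.177 CPM, the unit of counts scaled to the library's total. This floor covers counting error only. As a check of the label, the 5 epithelial markers (Cdh1, Epcam, Krt8, Krt18 and Cldn7) had at least 3216 counts in every library, although Cdh1 (log2 -0.47) and Krt8 (-0.48) were called lower under DOX at 3 days and Krt8 (-0.75) and Krt18 (-0.41) at 6 days. Of 5 principal cell markers of the collecting duct only Hsd11b2 passed the filter on low counts, and Aqp2, the water channel of that cell, had 0 to 9 counts. Hsd11b2 (4 to 28 counts) passed only through DMSO libraries, the group in which it was higher. No DOX library exceeded 0.847 CPM for Hsd11b2. The gene was called lower at 6 days, although its groups overlapped. Of 4 fibroblast markers 0 passed. Of 3 leukocyte markers Csf1r and Cd68 passed and were called lower at both times. Slc26a4, the 1 of 4 intercalated cell markers that passed, was called lower at 3 days, and of 3 endothelial markers Pecam1 and Kdr passed and were not called. The part of these markers in the results was not tested.

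Wnt7b was the dominant Wnt ligand transcript of these cells. In TPM, the authors' abundance unit, which is per length and allows genes to be set side by side, Wnt7b had 113 ± 12.4 (SD, n = 8) in the DMSO libraries. Summed over the 19 Wnt ligand genes, Wnt7b made up 73.1% ± 1.25 (SD, n = 8) of the TPM, and the 5 ligands described here together made up 92.9%. Wnt7a (11.6 ± 1.08) and Wnt4 (11.2 ± 0.733) followed at similar TPM levels, and their ranges overlapped. Wnt9a had 3.96 ± 0.414 TPM and Wnt10a 3.68 ± 0.656 TPM, again with overlapping ranges. Wnt9b, the ligand that induces nephrons in the embryo, had at most 2 counts in any of the 16 libraries, and Wnt3a had 0.

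**Figure D1:**
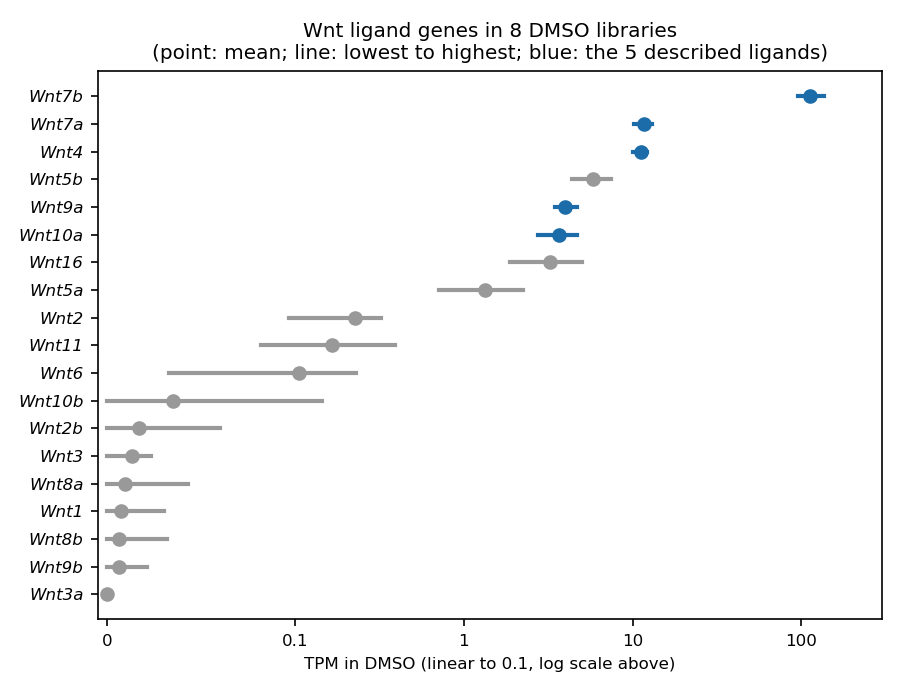
TPM of the 19 Wnt ligand genes in the 8 DMSO libraries, on an axis that is linear up to 0.1 and logarithmic above it; points are means, lines run from the lowest to the highest library, and the 5 ligands described are blue. Wnt7b, at 95.4 to 136 TPM, lies apart from every other ligand, and Wnt3a is at 0.

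Among the genes that receive or read the signal, Lgr4 had 13.9 ± 1.54 TPM (SD, n = 8) in DMSO, a range that overlapped that of Wnt7a. Tcf7 had 6.65 ± 0.661 TPM. The 3 lowest were Lef1 (0.216 ± 0.0780), Axin2 (0.0480 ± 0.0786) and Nkd1 (0.0258 ± 0.0276), and neighbours among these 3 overlapped. Hence the ligands, Lgr4 and Tcf7 were well measured, while the 2 feedback inhibitors were at the edge of detection.

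Wnt10a, lower at 6 days, was the one gene of the 10 called under DOX, and with so few genes the counts of calls lie near the shares over all tested genes. Of the 10, 8 had at least 1 CPM in at least 4 libraries and entered the fit of 13234 genes. Tested with edgeR's glmTreat against a 1.2-fold change and adjusted by Benjamini-Hochberg, 0 of the 8 were called at 3 days, when 12.5% of all tested genes were called. At 6 days 1 of 8 was called, Wnt10a, against 21.6% of all tested genes. In CPM the groups did not overlap for 3 of 8 at 3 days (Wnt7b and Wnt10a lower, Lef1 higher). Over all tested genes this share was 38.6% (18.8% with DOX higher and 19.8% with DOX lower). At 6 days 0 of 8 lay apart, beside 43.0%. On the TPM scale Wnt7b did overlap at 3 days (95.4 to 136 in DMSO, 64.3 to 104 in DOX). Wnt10a at 6 days did not overlap in TPM (2.76 to 4.71 in DMSO, 1.68 to 2.68 in DOX). The median log2 fold change of the 8 was -0.11 at 3 days and 0.02 at 6 days, beside 0.0031 and -6e-04 over all tested genes. Lef1 reached 1 CPM in 4 DOX libraries and in 0 DMSO libraries, so it entered the fit only through the group in which it was higher. Without it, the medians of the other 7 were -0.15 and -0.03. In CPM the groups did not overlap for 2 of these 7 at 3 days and for 0 at 6 days.

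**Figure D2:**
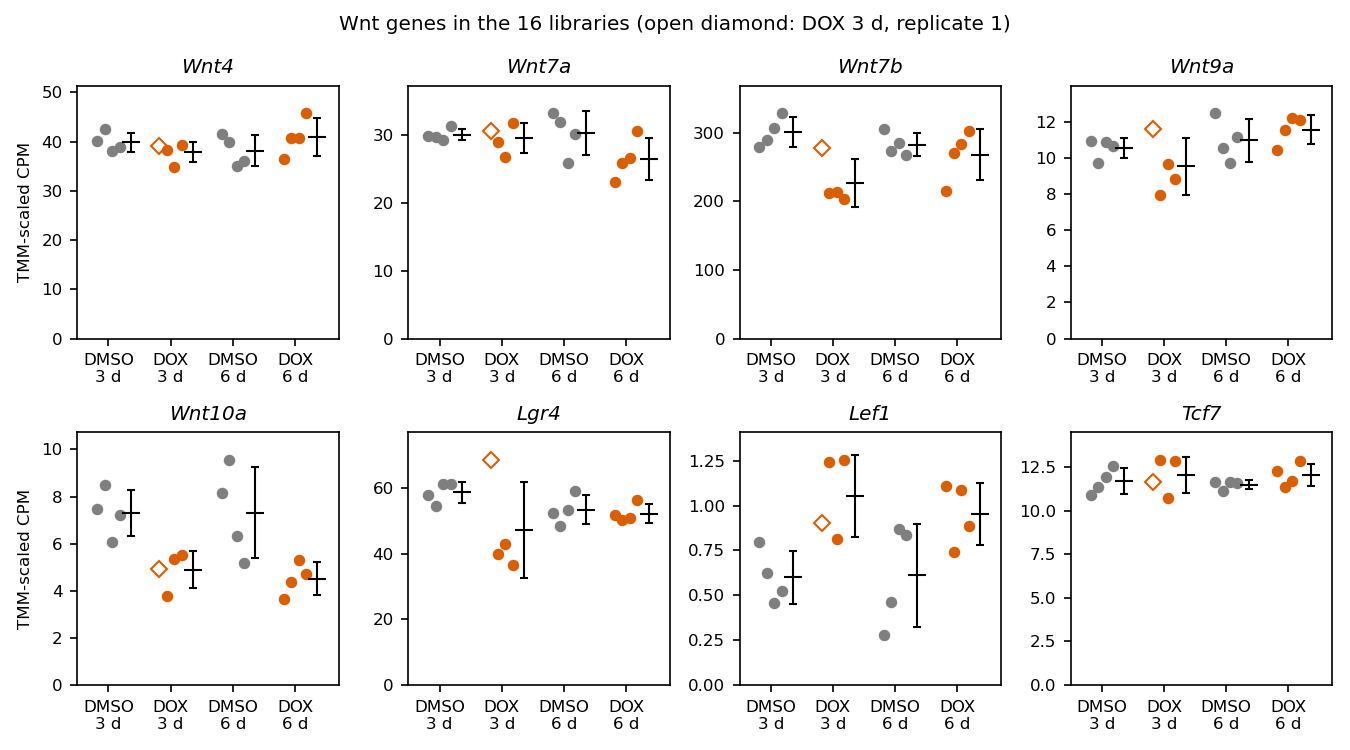
TMM-scaled CPM of the 8 tested genes in each library (points, linear axes from 0), with the mean and SD of the 4 libraries of each group beside them. In DOX at 3 days, replicate 1 (open diamond) lies above the other 3 libraries for Wnt7b (278 CPM against 203 to 213) and Lgr4 (68.8 against 36.8 to 43.1).

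Wnt10a, a ligand best known from skin and tooth development, lies on chromosome 1 (GRCm38, 74791516 to 74804179, plus strand). At 3 days it had 7.47, 8.48, 6.07 and 7.21 CPM in DMSO and 4.91, 3.79, 5.37 and 5.52 CPM in DOX. All 4 DOX libraries were lower than all 4 DMSO libraries. The log2 fold change of -0.59 (SE 0.17) was not called (adjusted p = 0.0727, edgeR glmTreat). At 6 days it had 8.17, 9.57, 6.34 and 5.18 CPM in DMSO and 3.67, 4.35, 5.32 and 4.71 CPM in DOX. Here the lowest DMSO library fell inside the DOX range in CPM, but not on the TPM scale. The log2 fold change was -0.70 (SE 0.17), and the gene was called lower (adjusted p = 0.0136, edgeR glmTreat). The call was lost without DMSO replicate 2 (-0.54, adjusted p = 0.0820 in the same test) with DESeq2 (-0.70, adjusted p = 0.0962), and with limma on log2(TPM + 1) (-0.54, adjusted p = 0.21) and on log2(TPM + 0.1) (-0.71, adjusted p = 0.0997). The effects at 6 and 3 days differed by -0.11 (95% interval -0.61 to 0.38).

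Wnt7b lies on chromosome 15 (85535437 to 85582473, minus strand) and overlaps the antisense gene AU022754. At 3 days it had 279, 290, 307 and 328 CPM in DMSO and 278, 212, 213 and 203 CPM in DOX. The DOX libraries of replicates 2 to 4 lay far below DMSO, whereas replicate 1 lay just under the lowest DMSO library. The log2 fold change was -0.41 (SE 0.10, adjusted p = 0.130, edgeR glmTreat), so the gene was not called. At 6 days it had 305, 273, 284 and 267 CPM in DMSO and 215, 270, 284 and 303 CPM in DOX. The groups overlapped and the log2 fold change was -0.08 (95% interval -0.28 to 0.13). On the TPM scale, Wnt7b kept most of the ligand sum throughout, at 73.6% ± 1.06 in DMSO and 70.8% ± 2.89 in DOX at 3 days, and 72.6% ± 1.31 and 73.1% ± 1.09 at 6 days (SD, n = 4 each). The sum itself was 156 ± 21.1 TPM in DMSO (132 to 182) and 106.5 ± 22.0 in DOX (95.1 to 139.5) at 3 days, and these ranges overlapped. No test was run on the sum. At 6 days it was 152.6 ± 10.1 and 138.1 ± 23.5 TPM. The median log2 shift of the tested genes on this scale was -0.149 at 3 days and -0.055 at 6 days.

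The other 3 ligands were not called at either time. Wnt4 (chromosome 4, 137277489 to 137299726, plus strand), which drives the change from mesenchyme to epithelium in the nephron, had 38.0 to 42.5 CPM in DMSO and 34.9 to 39.3 CPM in DOX at 3 days. At 6 days Wnt4 had 35.0 to 41.6 CPM in DMSO and 36.4 to 45.8 CPM in DOX. Its groups overlapped at both times, with log2 fold changes of -0.07 (95% interval -0.22 to 0.08) and 0.10 (-0.05 to 0.25). For Wnt7a (chromosome 6, 91363981 to 91411363, minus strand), a ligand that patterns limbs and the female reproductive tract, the intervals were -0.20 to 0.15 at 3 days and -0.37 to -0.02 at 6 days around log2 fold changes of -0.03 and -0.19. Its CPM overlapped at 6 days, at 25.9 to 33.2 in DMSO and 23.0 to 30.5 in DOX. Wnt9a (chromosome 11, 59306928 to 59333552, plus strand), which takes part in joint formation, had log2 fold changes of -0.15 (-0.37 to 0.07) and 0.08 (-0.14 to 0.29). Changes beyond 1.5-fold lay outside these intervals for all 3 genes at both times.

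Lgr4, a receptor for R-spondins, lies on chromosome 2 (109917647 to 110014257, plus strand). At 3 days it had 58.1, 54.7, 61.2 and 61.5 CPM in DMSO and 68.8, 40.0, 43.1 and 36.8 CPM in DOX. Replicate 1 was the highest library of both groups, and the other 3 DOX libraries were all under DMSO. With all libraries the log2 fold change was -0.32 (SE 0.14, adjusted p = 0.510, edgeR glmTreat). At 6 days it had 52.6, 48.6, 53.5 and 59.2 CPM in DMSO and 51.8, 50.3, 50.8 and 56.4 CPM in DOX, which overlapped, with a log2 fold change of -0.03 (95% interval -0.34 to 0.27).

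**Figure D3:**
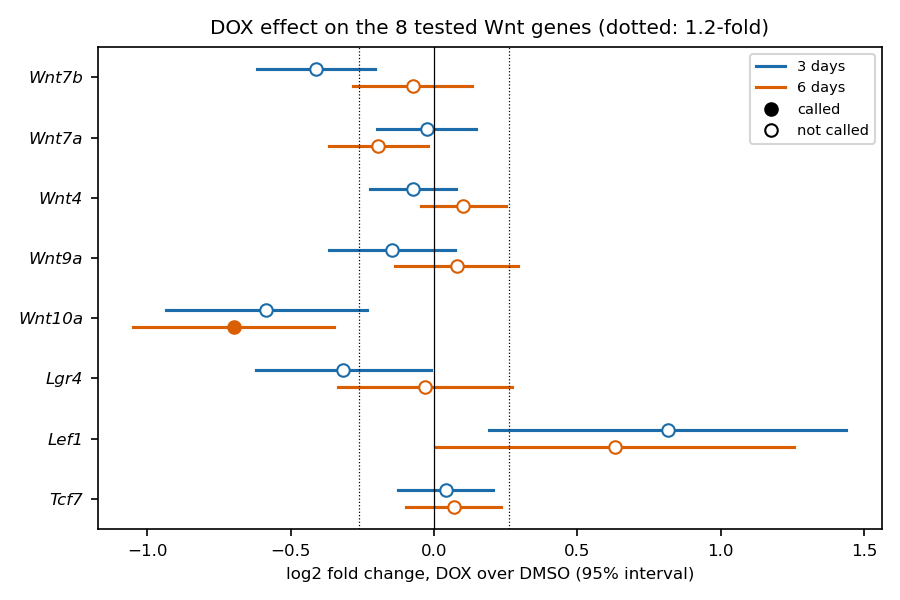
Log2 fold changes of DOX over DMSO for the 8 tested genes at 3 days (blue) and 6 days (orange), with 95% intervals; filled points were called and dotted lines mark a 1.2-fold change. Wnt10a at 6 days (-0.70) is the one filled point.

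Lef1 and Tcf7 encode DNA-binding partners of beta-catenin, and both are also known as targets of the pathway. Lef1 (chromosome 3, 131110471 to 131224356, plus strand) had 13, 15, 8 and 12 counts in DMSO and 18, 25, 15 and 23 counts in DOX at 3 days. Scaled to CPM, the highest DMSO library (0.796) lay just under the lowest DOX library (0.814). At 6 days it had 5, 10, 16 and 16 counts in DMSO and 22, 18, 23 and 18 counts in DOX, and the CPM ranges overlapped. The log2 fold changes of 0.82 (SE 0.30, adjusted p = 0.130) and 0.63 (SE 0.30, adjusted p = 0.238) were not called by edgeR glmTreat. Tcf7 (chromosome 11, 52252371 to 52283014, minus strand) had 10.9 to 12.6 CPM in DMSO and 10.7 to 13.0 CPM in DOX at 3 days. Its log2 fold changes were 0.04 (95% interval -0.12 to 0.21) and 0.07 (-0.10 to 0.23). Both genes overlap other annotated genes, some on the opposite strand, and whether the quantification used strand is not given in the sources used here.

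Axin2, a scaffold of the destruction complex and a widely used readout of canonical signalling, and Nkd1, which binds Dishevelled, stayed at or near 0 in all 16 libraries. Axin2 (chromosome 11, 108920349 to 108950783, plus strand) had 2, 1, 0 and 2 counts in DMSO and 1, 1, 1 and 1 in DOX at 3 days. At 6 days it had 0, 1, 0 and 2 counts in DMSO and 0, 1, 0 and 0 in DOX. All of these lie under the floor of 3 counts. Nkd1 (chromosome 8, 88521354 to 88594884, plus strand) had 0, 1, 3 and 1 counts in DMSO and 1, 1, 0 and 0 in DOX at 3 days. At 6 days it had 0, 0, 1 and 1 counts in DMSO and 0, 0, 4 and 0 in DOX. Exact two-sided permutation tests on TPM (70 arrangements) gave p = 0.914 and 0.714 for Axin2 and 0.629 and 1 for Nkd1 at 3 and 6 days. The smallest p the design allows is 0.0286, so 1 gene alone could not pass 0.05 after adjustment over the 4 tests, and with TPM resting on so few counts these p say nothing on a change. A fall of either gene was not detectable at this depth, and in no library did either exceed 4 counts.

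The 250 bases ahead of the start of Axin2 (chr11:108920099-108920348) and of Lgr4 (chr2:109917397-109917646), both on the plus strand in RefSeq on GRCm38.p6, are shown with CG pairs in capitals, because they set a near-silent target beside a well expressed receptor.
Axin2: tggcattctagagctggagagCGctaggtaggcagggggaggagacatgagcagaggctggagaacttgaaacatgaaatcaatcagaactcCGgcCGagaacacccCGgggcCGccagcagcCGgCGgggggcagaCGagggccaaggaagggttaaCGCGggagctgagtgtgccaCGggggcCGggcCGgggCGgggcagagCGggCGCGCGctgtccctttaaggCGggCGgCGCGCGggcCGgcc
Lgr4: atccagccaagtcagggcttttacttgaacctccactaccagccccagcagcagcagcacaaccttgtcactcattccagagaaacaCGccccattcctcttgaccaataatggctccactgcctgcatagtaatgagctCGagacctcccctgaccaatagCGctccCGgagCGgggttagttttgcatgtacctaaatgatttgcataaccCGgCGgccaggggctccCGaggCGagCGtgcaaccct
The Axin2 stretch held 24 CG pairs and that of Lgr4 held 10, against a median of 6 over 32851 RefSeq promoters. RefSeq windows from 250 bases before to 50 bases after the start were found for 8 of the 10 genes, 12 windows in all, with none for Wnt7b and Wnt10a. CTTTGAA or CTTTGAT, forms of the TCF/LEF motif, were looked for on both strands. They occurred in 0 of the 12 windows and in 8.65% of all promoters of this length. This says only that these letters are not in these windows.

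Whether Wnt7b and Lgr4 were called at 3 days depended on replicate 1 of DOX and on the processing. This library had the highest DOX value of both genes at 3 days, so leaving it out enlarges their fall. Without it, Wnt7b (-0.53, adjusted p = 0.00631) and Lgr4 (-0.56, adjusted p = 0.00071) were both called lower at 3 days by edgeR glmTreat. The 8 fits that each left out a library of 3 days called 1366 to 2297 genes in all, beside 1658 with all libraries. Libraries also differed in how a gene's deviation from its mean ran with transcript length. Spearman's rho of the 2 over all tested genes was 0.18 in replicate 1 of DOX at 3 days, against -0.37, -0.33 and -0.41 in replicates 2 to 4. DMSO at 3 days had rho of 0.14 to 0.35, DMSO at 6 days -0.20 to 0.24 and DOX at 6 days -0.14 to 0.06. With length and GC content corrected for, the log2 fold changes at 3 days shrank to -0.26 for Wnt7b (adjusted p = 0.812) and -0.25 for Lgr4 (adjusted p = 0.885, edgeR glmTreat). With both the correction and replicate 1 left out, an alternative added after seeing the data, Lgr4 was called (-0.46, adjusted p = 0.0058) and Wnt7b was not (-0.32, adjusted p = 0.188, edgeR glmTreat). Wnt10a had log2 fold changes of -0.57 and -0.82 at 3 and 6 days under the correction. The part of the length trend in these differences was not tested.

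**Figure D4:**
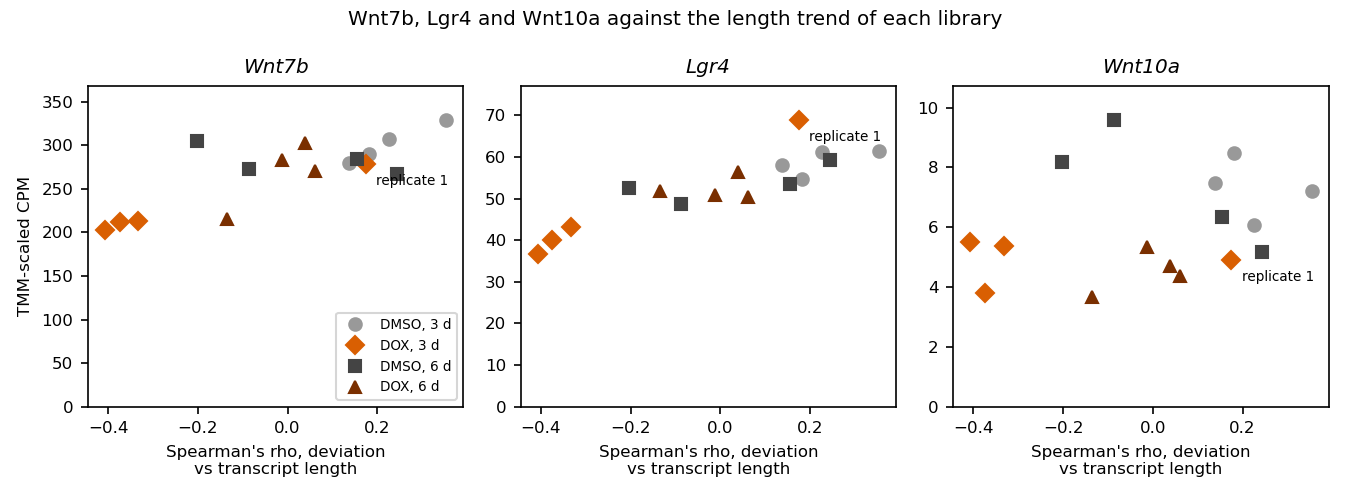
TMM-scaled CPM of Wnt7b, Lgr4 and Wnt10a (vertical, from 0) against Spearman's rho of deviation with transcript length in each of the 16 libraries (horizontal). The 3 DOX libraries of 3 days at -0.33 to -0.41 hold the 3 lowest values of Wnt7b and of Lgr4, while Wnt10a shows no such order.

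Time alone moved none of the 8 tested genes past the test in DMSO, where edgeR glmTreat called 0% of all genes (172 had an unadjusted p under 0.05, and 62 were called with no fold threshold). Their log2 differences, 6 days minus 3 days, ran from -0.14 (Lgr4) to 0.06 (Wnt9a). The DOX effect at 6 days minus that at 3 days was also tested, by edgeR glmQLFTest, which called 17.0% of all genes and 0 of the 8. The largest of these differences was that of Wnt7b, 0.34 (95% interval 0.04 to 0.63, adjusted p = 0.101 by glmQLFTest). Lgr4 followed with 0.29 (-0.14 to 0.72), and without replicate 1 of DOX at 3 days both were called (adjusted p = 0.00682 for Wnt7b and 0.000616 for Lgr4, edgeR glmQLFTest). That fit called 3788 genes in all, beside 2252 with all libraries.

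Around these genes, 9 lists of other pathway members held 110 genes, of which 67 were tested. Of the 67, 3 were called higher and 9 lower at 3 days, and 4 higher and 3 lower at 6 days, beside 5.30%, 7.22%, 10.0% and 11.6% of all tested genes. Ligand processing and release was the list with most members higher. Wls, the carrier that brings Wnts to the cell surface, rose from 216 to 228 CPM in DMSO to 288 to 313 CPM in DOX at 3 days (log2 0.43, adjusted p = 0.00353) and further at 6 days (0.68, adjusted p = 4.49e-08, edgeR glmTreat). Sulf2, a sulfatase that trims heparan sulfate, rose by 0.66 and 1.79 on the log2 scale (adjusted p = 0.00178 and 4.36e-11, edgeR glmTreat). The glypicans Gpc4 (1.05) and Gpc6 (0.56) rose at 6 days. Of 11 alternatives other than leaving out a library, 3 lost the 3-day call of Wls and 2 that of Sulf2. The 6-day call of Gpc6 was lost in 3, while all 11 kept those of Wls, Sulf2 and Gpc4. On the TPM scale the 3-day ranges of Wls overlapped (87.5 to 113 in DMSO, 110 to 145 in DOX), as did those of Sulf2 (1.91 to 3.54 and 2.66 to 3.85).

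The genes called lower were spread over receptors, inhibitors and targets. Lgr6, a close relative of Lgr4, had 25.2 to 27.2 CPM in DMSO and 11.9 to 15.8 CPM in DOX at 3 days, and 18.6 to 26.1 and 8.05 to 10.3 CPM at 6 days. Its log2 fold changes were -0.89 and -1.32 (adjusted p = 1.58e-05 and 1.58e-08, edgeR glmTreat). At 3 days Fzd1, Fzd4 and Fzd5, of the Frizzled receptors, were called lower at log2 -0.51, -0.51 and -0.53, and all 3 lost the call when length and GC content were corrected for (-0.29, -0.32 and -0.27). The ligand Wnt5b (-0.61) and the inhibitors Dkk3 (-0.97) and Kremen1 (-0.49) were also called lower at 3 days, and Wnt5b (-0.49) and Kremen1 (-0.31) lost the call under the same correction. Of the 8 fits that left out a library, 4 lost the 3-day call of Wnt5b (adjusted p up to 0.186, edgeR glmTreat), 2 that of Fzd1 and 1 that of Fzd4. Of the other targets, Ephb2 (-0.83 and -0.50) and Ephb3 (-0.54 and -0.67) fell at both times, and Myc rose at 3 days (0.43). Ephb3 lost its call at 3 days under the correction (-0.41), and the 6-day call of Ephb2 was lost in 7 of the 8 fits that left out a library. Of 11 alternatives other than leaving out a library, 2 lost the 3-day call of Myc.

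In the pathway's core, the 16 tested genes of the Dishevelled, destruction complex and beta-catenin list had 0 calls under DOX at either time. The 11 TCF factors and nuclear partners and the 7 planar polarity genes that were tested also had 0. Over all tested genes the share was 12.5% (3 days) and 21.6% (6 days). These lists thus lay below both shares, and whether by more than chance was not tested. In the difference between times, 1 of the 16, Apc2, was called (0.51, adjusted p = 0.048, edgeR glmQLFTest), as was the co-receptor Ptk7 (0.36, adjusted p = 0.0174). Both are named after their values were seen. Of the 67 tested genes of the 9 lists, 6 were called higher and 1 lower in this difference, beside 17.0% of all tested genes in either direction. Ctnnb1, which encodes beta-catenin, had log2 fold changes of -0.35 and -0.27, Gsk3b -0.12 and -0.06, and Apc -0.18 and 0.04 at 3 and 6 days. The co-receptors Lrp5 (-0.23 and -0.04) and Lrp6 (-0.37 and -0.35) and the factor Tcf7l2 (-0.31 and -0.42) were not called either. In CPM the DOX libraries of Ctnnb1 and Lrp6 all lay below DMSO at both times, and those of Tcf7l2 at 6 days only. Gsk3b, Apc and Lrp5 overlapped at both times. The 95% intervals of Ctnnb1 were -0.477 to -0.216 at 3 days and -0.398 to -0.137 at 6 days. Those of Lrp6 were -0.53 to -0.205 and -0.511 to -0.186. For these genes, no call means only that a fall beyond 1.2-fold was not shown. Without replicate 1 of DOX at 3 days, Ctnnb1 and Lrp6 were called lower at 3 days (adjusted p = 0.0166 and 0.00195, edgeR glmTreat). Of 11 alternatives other than leaving out a library, 5 called Ctnnb1 lower at 3 days and 1 at 6 days. Lrp6 was called lower by 1 at each time, and Tcf7l2 by 1 at 3 days and 3 at 6 days. In bulk RNA, fewer cells with a transcript and less transcript per cell cannot be told apart.

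**Figure D5:**
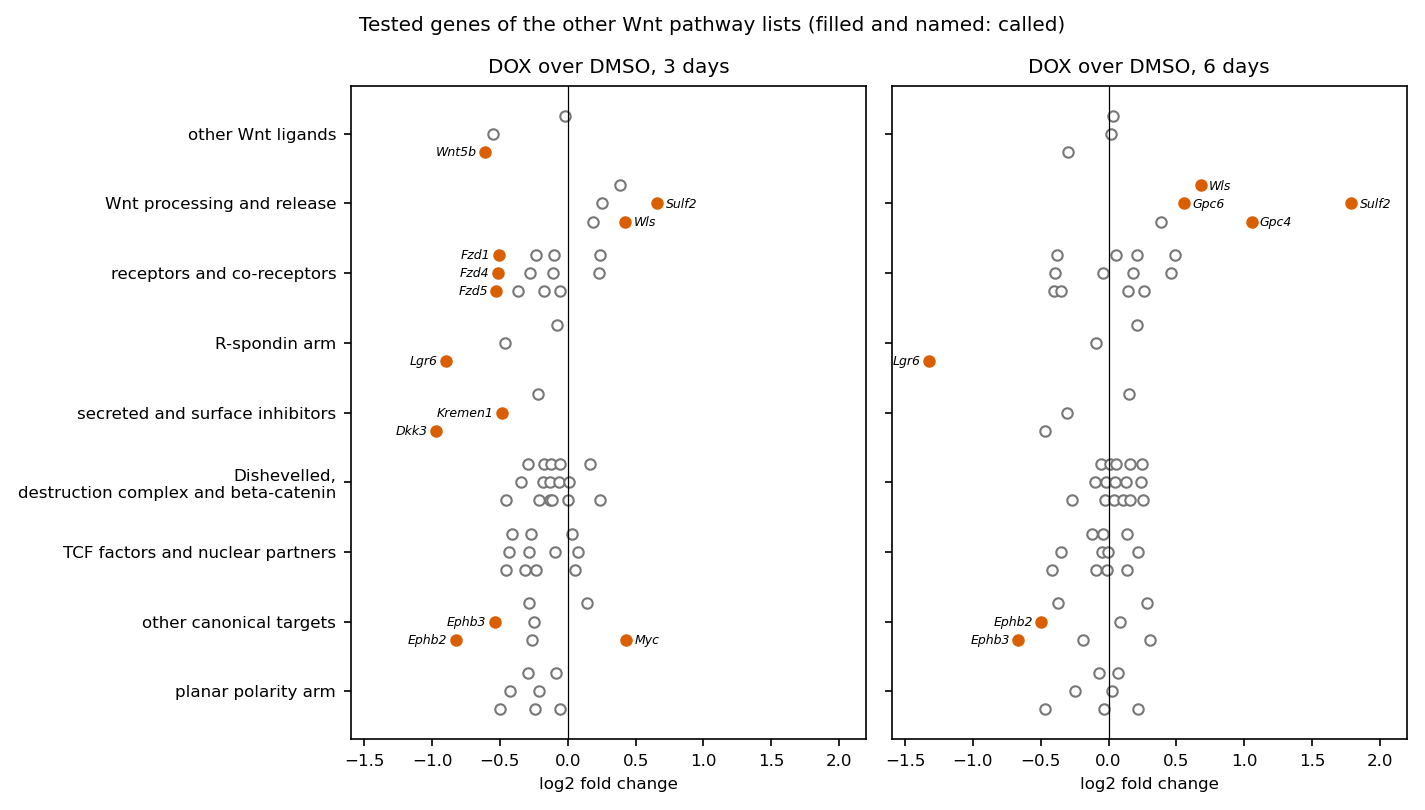
Log2 fold change of DOX over DMSO at 3 days (left) and 6 days (right) for the 67 tested genes of 9 Wnt pathway lists, 1 row of points per list; filled and named genes were called. Sulf2 (1.79) and Lgr6 (-1.32) lie farthest out at 6 days.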

How the data were processed

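Gene-level tables for 16 libraries were used. Poly(A) RNA was sequenced in pairs, and the authors quantified transcripts with salmon; STAR 2.6.0c and GRCm38.p6 are named in the labels. The deposited estimated counts are not normalized, and were rounded here to whole numbers. The deposited TPM values are the authors' and were used for levels between genes. There were 0 columns of samples outside the series.

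Genes with CPM of at least 1 in at least 4 libraries (13234) were fitted with edgeR 4.0.16 (R 4.3.3, TMM scaling, robust quasi-likelihood, 1 mean per group). DOX was compared with DMSO, and DMSO over time, by glmTreat at a fold of 1.2, and effects between times by glmQLFTest; p was two-sided and adjusted by Benjamini-Hochberg over all tested genes, with 0.05 as limit. SE was the log2 fold change over the square root of F. Axin2 and Nkd1, under the filter, were tested exactly on TPM, adjusted over 4 tests. The edgeR steps were also run on simulated data. The check on false calls left out the uncorrected fit with a length trend added, and no outcome is quoted here. Positions, lengths and GC content came from GENCODE M21, and promoters from RefSeq.

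The 10 genes and the 9 lists were chosen with earlier results of these data known. Named from the lists were called genes whose libraries lay apart (all where 5 or fewer were called), and Ctnnb1, Gsk3b, Apc, Lrp5, Lrp6 and Tcf7l2 whatever their change. Genes most like Axin2 were not sought, since its counts were 0 to 2. Alternatives were DESeq2 1.42.0, limma 3.58.1 on log2(TPM + 1) and log2(TPM + 0.1), other filters and scaling, no fold threshold, 8-library fits, a replicate block, correction for length and GC (splines with 5 degrees of freedom), and leaving out each library.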

Additional observations from a re-analysis of the deposited data

Results flagged for a closer look

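In 120 groups of 4 libraries, those of 30 genes, 13 had a library whose gap to its nearest neighbour exceeded 0.829 of the range. For continuous values, chance gives about 1 in 20 groups. That rate does not apply to values resting on 0 to 4 counts, as those of Axin2 and Nkd1 do. Of the 13, 7 belonged to the 10 genes described and 4 to replicate 1 of DOX at 3 days. In that replicate Wnt7b had 278 CPM (the other 3 libraries 203 to 213), Ctnnb1 504 CPM (426 to 437), Gsk3b 158 CPM (129 to 131) and Axin2 0.066 TPM (0.022 to 0.028). Axin2 had 1 count in each of these 4 libraries, so its gap is not one of counts.

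Tcf7 had 11.1 CPM in DMSO replicate 2 at 6 days, where the others were all at 11.6. Axin2 had 0.22 TPM in DMSO replicate 4 at 3 days, 0.11 TPM in DMSO replicate 4 at 6 days and 0.02 TPM in DOX replicate 2 at 6 days, and Nkd1 had 0.129 TPM in DOX replicate 3 at 6 days; these rest on 1 to 4 counts. Wnt5b had 12.9 CPM in DMSO replicate 4 and Fzd5 30.0 CPM in DMSO replicate 1 at 3 days. Fzd4 was low in DMSO replicate 1 at 6 days (8.62 CPM), and Myc in DOX replicate 3 at 3 days (132 CPM).

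The DOX effect differed between the times by edgeR glmQLFTest for 5 named genes, none of them among the 10. The same test called 17.0% of all tested genes. The log2 difference, 6 days minus 3 days, was 1.13 for Sulf2 (adjusted p = 0.000142), 1.13 for Dkk3 (0.00453), 0.81 for Gpc4 (0.0366), 0.26 for Wls (0.0129) and -0.43 for Lgr6 (0.0466). Of the 16 fits that left out a library, 9 lost the call of Gpc4 (adjusted p up to 0.0806) and 10 that of Lgr6 (up to 0.112).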

How the results depend on the processing

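No fold threshold gave 5982, 6702 and 62 calls at 3 days, at 6 days and over time in DMSO. For the difference, a 1.2-fold threshold gave 183 calls. Without the threshold 3 of the 8 tested genes were called at 3 days (Wnt7b, Wnt10a and Lef1), beside 5982 of 13234 tested genes. Lef1 entered the fit only through DOX libraries. limma gave 701, 1307 and 659 (3 days, 6 days, difference) on log2(TPM + 1) and 909, 1527 and 631 on log2(TPM + 0.1); DESeq2 gave 1019 at 3 days. All 3 called 0 of the 10 genes at 6 days. The median of all genes moved by -0.15 at 3 days on the TPM scale. No filter gave 6 calls over time in DMSO, Wnt10a at 3 days and Wnt7b in the difference, 1 each; the 8-library fit called 1, Wnt10a, at 3 days, and length and GC correction without replicate 1 of DOX at 3 days called 1, Lgr4, at 3 days and 1 in the difference. Leaving out a library gave 1366 to 2297, 2537 to 3057, 0 to 0 and 1370 to 3788 calls at 3 days, at 6 days, over time in DMSO and for the difference. Of the 10 genes it called 0 to 2, 0 to 1, 0 to 0 and 0 to 2. The highest, 3788, was without replicate 1 of DOX at 3 days; the lowest for the difference, 1370, without DMSO replicate 4 at 3 days. Wnt10a was called at 3 days without DMSO replicate 3 (-0.66), and Wnt7b in the difference without DOX replicate 1 of 6 days (0.43). The cause was not tested.

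Some signs reversed, and some reversed values exceeded the estimate of the fit used above in size. In that fit Wnt4 had -0.073 at 3 days and Tcf7 had 0.027 in the difference. For Wnt10a over time in DMSO the reversed values were -0.001 (RLE scaling), -0.006 (1 CPM in all 16 libraries), -0.004 (replicate block), and 0 with the 8-library fit and DESeq2. For Lgr4 at 6 days it was 0.006 without a filter. Length and GC correction, and the same with the replicate block, gave 0.154 and 0.155 for Wnt4, 0.041 and 0.035 for Wnt9a and 0.011 and 0.006 for Lrp5 at 3 days. At 6 days they gave 0.012 and 0.014 for Lgr4 and 0.005 and 0.006 for Gsk3b. Over time in DMSO they gave 0.054 and 0.054 for Wnt4 and -0.054 and -0.053 for Wnt7a, and in the difference -0.064 and -0.063 for Wnt4 and -0.12 and -0.121 for Tcf7. Without replicate 1 of DOX at 3 days as well, Wnt4 had 0.193 at 3 days and -0.104 in the difference, and Tcf7 -0.159. On log2(TPM + 1) and log2(TPM + 0.1), Tcf7 had -0.118 and -0.134 at 3 days and 0.037 and 0.043 over time, Apc -0.016 and -0.016 at 6 days, and Wnt10a 0.02 and 0.036 in the difference; Lef1 had 0.012 there with the smaller pseudocount.

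With a library left out, log2 values at 3 days that changed sign ran from -0.062 to 0.018 for Wnt7a. Over time in DMSO they ran from -0.035 to 0.079 for Wnt7a, -0.01 to 0.109 for Wnt9a, -0.162 to 0.135 for Wnt10a, -0.175 to 0.257 for Lef1 and -0.059 to 0.01 for Tcf7. In the difference they ran from -0.248 to 0.049 for Wnt10a, -0.409 to 0.023 for Lef1 and -0.024 to 0.063 for Tcf7. At 6 days they ran from -0.139 to 0.016 for Wnt7b, -0.076 to 0.021 for Lgr4, -0.16 to 0.027 for Gsk3b, -0.006 to 0.099 for Apc and -0.094 to 0.039 for Lrp5.

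Equally numbered libraries did not deviate together: r ran from -0.43 to 0.18 over 12 pairs, with 1 above 0.1. The replicate block gave 1570, 2767, 0 and 1768 calls, with 0 of the 10 genes at 3 days and Wnt10a at 6 days (-0.69, adjusted p = 0.0275, edgeR glmTreat); Ephb2 at 6 days (adjusted p = 0.0604) and Lgr6 in the difference (0.0517) lost their calls. Depth limits Axin2, Nkd1 and Lef1.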
